A study of Mus musculus with 9 samples.

Results

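Ptgs2 encodes the inducible cyclooxygenase, COX-2, and is followed here through every library of a mouse immunology probe panel. It is 1 gene of 561 on the panel (547 endogenous and 14 housekeeping). Ptgs2 was chosen from these data, as the gene with the largest log2 difference between antibiotic and control libraries, so that difference and its levels are given as a description with no test. The RNA was from the ileal epithelial cells of males of the NOD line, inbred mice prone to autoimmune diabetes, at postnatal day 23. The 3 groups had 3 libraries each: mice given antibiotics (labelled 1PAT antibiotics), mice given a transfer of cecal material, and control mice. The labels carry no agent, dose or timing, and leave unsaid whether antibiotics preceded the transfer. Nor do they state that each library is its own animal, so p-values measure only the spread between these libraries, which may be technical. The assay (nCounter) counts single transcripts by a capture probe and a colour-coded reporter probe, without amplification, and these are bulk preparations in which fewer cells of a type and less RNA per cell cannot be told apart.

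Cyclooxygenases turn arachidonic acid, released from membranes by phospholipases, into prostaglandin H2, from which prostaglandin E2 and other prostanoids are made. Ptgs2 is the inducible form: its transcript is short-lived and usually scarce, and appears with inflammatory signals such as interleukin-1, tumour necrosis factor and lipopolysaccharide. In the gut, prostaglandin E2 acts on epithelial cells, lymphocytes and stromal cells, in part through the receptor EP4, which Ptger4 encodes. The transcription factors known to act on the mouse Ptgs2 promoter include C/EBP beta, CREB-family factors and NF-kB.

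The Ptgs2 probe is listed at position 675 of its RefSeq transcript in the deposited files. That transcript matched, without its version, the RefSeq gene Ptgs2 on chromosome 1 (150100031 to 150108234, GRCm38.p6, plus strand). The promoter is shown because several factors known to act there were measured beside Ptgs2 on the same panel. The stretch below spans chr1:150099781-150100060 of RefSeq's GRCm38.p6, from 250 bases before to 30 bases after the annotated start, 5′ to 3′ on the plus strand. Capitals mark the C/EBP palindrome TTGCGCAA and the CRE core CGTCA, which shares 2 bases with the E-box CACGTG to its right.
Ptgs2 promoter: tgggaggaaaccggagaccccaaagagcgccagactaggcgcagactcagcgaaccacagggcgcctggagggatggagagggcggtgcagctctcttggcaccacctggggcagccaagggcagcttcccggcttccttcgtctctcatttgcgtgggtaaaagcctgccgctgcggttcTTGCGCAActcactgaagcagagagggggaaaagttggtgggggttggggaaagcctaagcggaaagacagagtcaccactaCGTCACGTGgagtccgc

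The palindrome lay at bases -69 to -62 and the CRE core with the E-box at bases 14 to 22, counted from the annotated start. Both strands of 32851 RefSeq windows of 300 bases (250 before to 50 after a gene start) were searched for the same letters. TTGCGCAA was present in 0.183% of the windows, CGTCA in 20.8%, CACGTG in 7.15%, and the overlapping pair CGTCACGTG in 0.451%. The NF-kB consensus had no match in the Ptgs2 window, and bases farther upstream were not searched. This consensus was present in 8.46% of all windows. Such matches describe letters in a window and were not tested as binding sites.

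Ptgs2 was well above background in antibiotic libraries, intermediate in transfer libraries, and close to background in control libraries. The background limit of a library is the mean plus 2 SD of the counts of its 8 negative-control probes. In antibiotic libraries the Ptgs2 count was 118, 67 and 68 (replicates 1, 2 and 3), against limits of 12.05, 12.6 and 12.05. In transfer libraries it was 24, 75 and 56, against limits of 13.8, 10.4 and 12.03. In control libraries it was 14, 18 and 4, against limits of 7.74, 17.7 and 8.001. Every antibiotic and transfer library therefore passed its limit. Control replicate 1 passed, control replicate 2 lay at 1.02 times its limit, and control replicate 3 stayed under it.

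**Figure D1:**
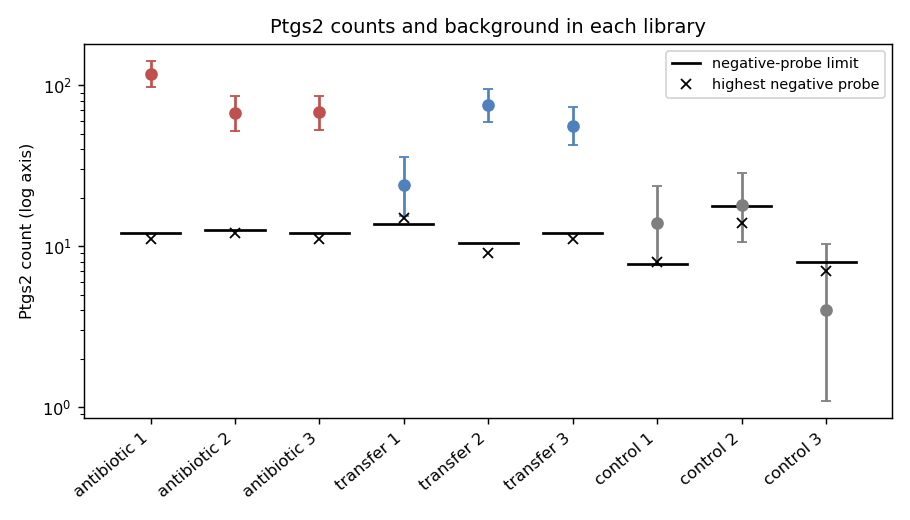
Ptgs2 count per library on a log axis, with exact 95% Poisson intervals; black bars mark the limit of each library's negative probes and crosses its highest negative probe. Antibiotic counts (67 to 118) lie above all limits, while control counts (4 to 18) lie near theirs.

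The counting intervals of antibiotic and control libraries did not overlap. The exact 95% Poisson interval ran from 51.9 to 85.1 for the lowest antibiotic count and from 10.7 to 28.4 for the highest control count. Transfer replicate 1, the shallow library of its group, had an interval of 15.4 to 35.7, which overlapped those of control replicates 1 (7.65 to 23.5) and 2. Scaled to CPM as defined next, its interval of 40.01 to 92.9 still overlapped those of control replicates 1 (up to 51.0) and 2 (up to 47.7). These intervals cover counting error only, not the spread between mice or preparations.

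Total counts over the 561 genes ran from 323129 to 747434 per library, so levels were scaled to a common library total (CPM) with TMM factors, a trimmed-mean scaling. Antibiotic libraries then had 227, 248 and 93.6 CPM of Ptgs2. Transfer libraries had 62.4, 100.1 and 83.6 CPM, and control libraries 30.4, 30.2 and 7.69 CPM. No antibiotic or transfer library overlapped a control library on this scale. Antibiotic replicate 3 lay inside the transfer range, so those groups overlapped.

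The mean level was 189.5 ± 83.7 CPM in antibiotic, 82.0 ± 18.9 CPM in transfer and 22.8 ± 13.1 CPM in controls (SD, n = 3 each). Levels spread 2.65 times within the antibiotic group and 1.60 times within the transfer group. In the order antibiotic, transfer, control, antibiotic and transfer overlapped, by antibiotic replicate 3. Transfer and control did not, since the lowest transfer library stood 2.05 times above the highest control library.

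In 1 edgeR fit of all libraries, the log2 fold change of Ptgs2 was 3.03 ± 0.59 (SE) for antibiotic against control, an 8.19-fold difference. For transfer against control it was 1.85 ± 0.57, or 3.60-fold. For transfer against antibiotic it was -1.19 ± 0.53, so transfer libraries averaged 0.439 times the antibiotic level. All 3 values share the libraries on which Ptgs2 was picked, and none is given a test. With each control library set at the higher of its level and its limit, the ratio of means was 7.48 for antibiotic and 3.24 for transfer over control. Without control replicate 3, the library with Ptgs2 under its limit, the log2 fold change was 2.57 for antibiotic and 1.40 for transfer against control.

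Ptgs2 ranked 1 of the 470 genes kept for testing, by log2 fold change of antibiotic against control. The genes just behind it were Tlr8, an endosomal RNA sensor, at 2.33, Il2ra, the alpha chain of the receptor for interleukin-2, at 2.09, and Cd40lg, a T cell co-stimulatory ligand, at 2.08. Gpr183, an oxysterol receptor that guides lymphocytes, followed at 2.07 and H60a, which NKG2D on lymphocytes recognises, at 2.04. In transfer against control, which shares the control libraries, Ptgs2 ranked 1 as well. Groups did not overlap in 28.9% of the 470 genes for antibiotic against control (18.1% higher, 10.9% lower) and in 26.4% for transfer against control (15.7% higher, 10.6% lower). For transfer against antibiotic the share was 7.45% (3.62% higher, 3.83% lower).

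The order of the groups depended on the scale at one point. The deposited normalised signal, which is the count times a housekeeping factor, was 141, 113 and 57.5 in antibiotic, 43.7, 55.0 and 52.2 in transfer and 17.4, 13.7 and 3.11 in control libraries. On that scale no antibiotic library overlapped a transfer library, although antibiotic replicate 3 and transfer replicate 2 lay close together. Per 1000 counts of the synthetic positive spike-ins, Ptgs2 was 3.94, 1.90 and 3.42 in antibiotic, 8.02, 5.68 and 5.99 in transfer and 4.07, 2.53 and 0.164 in control libraries. Against the spike-ins, then, transfer libraries were highest, and antibiotic and control libraries overlapped. Spike-in totals ranged from 2994 to 35248, an 11.8-fold range, and were 28354 ± 7805 in antibiotic, 8516 ± 5159 in transfer and 11642 ± 11174 in control libraries (SD, n = 3 each).

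Spike-in scaling moved the whole panel and not Ptgs2 alone. It shifted the median log2 fold change of the 470 genes to -1.92 for antibiotic against control, while Ptgs2 stood at 0.51, which is 2.43 above that median. For transfer against antibiotic the median was 2.03 and Ptgs2 stood at 1.08, which is -0.95 relative to it. A scaling multiplies all genes of a library alike, so the position of Ptgs2 relative to the panel is largely fixed whichever scaling is used. That it had the same sign under both scalings is therefore largely built in. For transfer against antibiotic, the log2 fold change of Ptgs2 itself differed in sign between TMM and spike-in scaling.

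**Figure D2:**
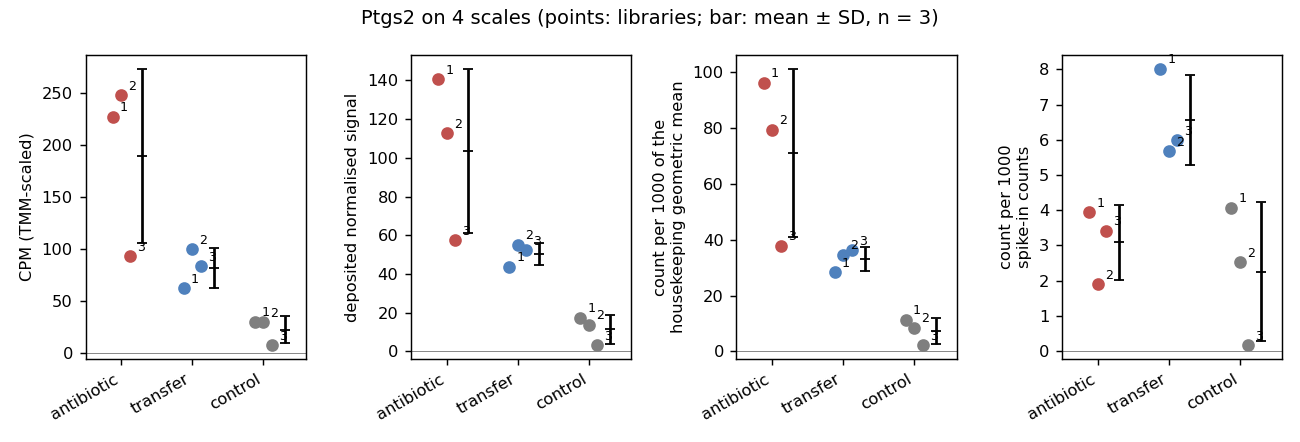
Ptgs2 in each library (points, numbered by replicate) on 4 scales, with the mean and SD of each group (n = 3) as bars. On the first 3 scales antibiotic and transfer libraries lie above every control library; per 1000 spike-in counts, transfer is highest (5.68 to 8.02) and antibiotic and control overlap.

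The other measured lipid mediator genes differed in direction: Ptger4 and Pla2g2a were lower in every antibiotic library than in every control library, and Ptafr was higher. Of 31 further lipid mediator genes listed, 6 were measured and 5 kept for testing. Antibiotic libraries lay wholly above control in 1 of the 5 and wholly below in 2, against 18.1% and 10.9% of all genes. For transfer against control these were 0 and 2, against 15.7% and 10.6%. By edgeR's quasi-likelihood test 0 of these 5 passed an adjusted p under 0.05 in any comparison, as did 0 of all 470 genes (0%). Unadjusted p-values under 0.05 were found in 21.7% of genes for antibiotic against control, 22.3% for transfer against control and 2.55% for transfer against antibiotic. DESeq2, run as an alternative, called 51, 40 and 0 genes in that order. The lipid mediator list had a median log2 fold change of -0.70 for antibiotic against control (all genes 0.03), with 2 members above 0 and 3 below, where 50.9% of all genes were above 0. That median was -0.21 without control replicate 3 and -0.27 without antibiotic replicate 1.

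Ptger4, the EP4 receptor through which prostaglandin E2 signals, differed from control in the direction opposite to Ptgs2. For transfer against antibiotic it had a log2 fold change of -0.04, where Ptgs2 had -1.19. Its r with Ptgs2 was -0.70 over the 9 libraries and 0.03 on deviations from group means. Ptger4 had 204, 218 and 211 CPM in antibiotic, 198, 262 and 154 CPM in transfer and 382, 305 and 362 CPM in controls. Every control library lay above every antibiotic and transfer library. The log2 fold change was -0.73 ± 0.36 (SE) for antibiotic against control (edgeR adjusted p = 0.249) and -0.77 ± 0.36 for transfer against control (edgeR adjusted p = 0.214), so neither passed.

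Pla2g2a, a secreted phospholipase A2 of Paneth cells with antibacterial activity, was also lower. It had 273, 255 and 169 CPM in antibiotic, 330, 220.2 and 251 CPM in transfer and 643, 1121 and 346 CPM in controls. Again no control library overlapped either other group, though control libraries differed widely among themselves. Its log2 fold change was -1.60 ± 0.45 (SE) for antibiotic against control (edgeR adjusted p = 0.0800) and -1.40 ± 0.44 for transfer against control (edgeR adjusted p = 0.185).

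Ptafr, the receptor of platelet-activating factor, had the order of group means seen for Ptgs2, with smaller differences. It passed its limit in 3 antibiotic, 3 transfer and 2 control libraries and averaged 59.6 ± 6.81 CPM in antibiotic, 50.1 ± 5.67 CPM in transfer and 42.7 ± 12.9 CPM in controls (SD, n = 3 each). Every antibiotic library lay above every control library, while transfer overlapped both. The nearest libraries had 55.5 CPM (antibiotic replicate 2) and 53.8 CPM (control replicate 3). The log2 fold change of Ptafr for antibiotic against control was 0.49 ± 0.45 (SE; edgeR adjusted p = 0.561), and 0.26 without control replicate 2. Pla2g2e and Ltb4r2 were near background. Pla2g2e, another secreted phospholipase, had -0.70 ± 0.67, which was -0.21 without control replicate 3, -0.27 without antibiotic replicate 1 and -1.14 without antibiotic replicate 2. Ltb4r2, a low-affinity leukotriene B4 receptor, had 0.28 ± 0.60 and ranged from 0.09 without control replicate 1 to 0.51 without control replicate 3. It stood at 0.09 without antibiotic replicate 3 and 0.50 without antibiotic replicate 2. Ltb4r1, the high-affinity leukotriene B4 receptor, did not pass the background filter.

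**Figure D3:**
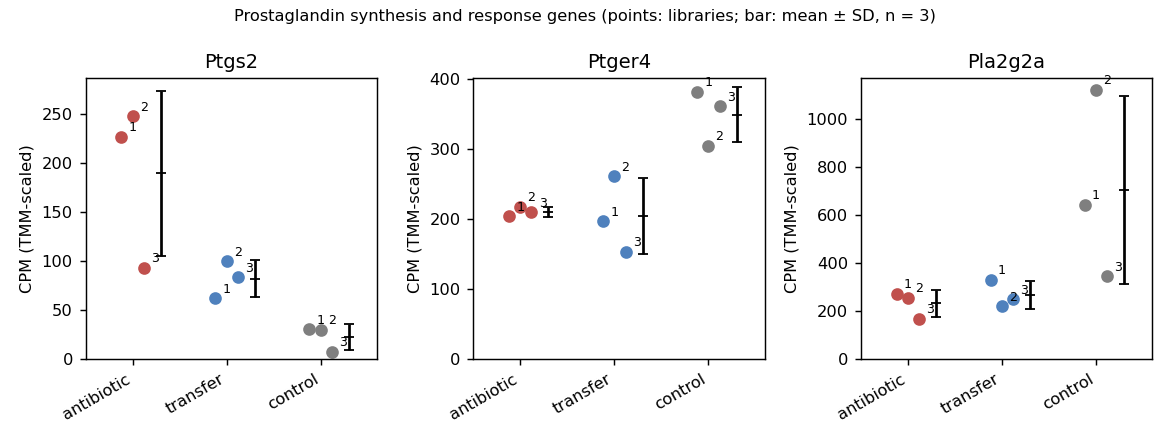
CPM of Ptgs2, Ptger4 and Pla2g2a in each library (points, numbered by replicate), with the mean and SD of each group (n = 3) as bars. Ptgs2 is lowest in control libraries (7.69 to 30.4), while Ptger4 (305 to 382) and Pla2g2a (346 to 1121) are highest there.

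None of the kept genes of the signals known to induce Ptgs2 passed the test, and neither did any other of the 470 genes. Of 32 measured genes of interleukin-1, tumour necrosis factor and lipopolysaccharide signalling, 29 were kept. Their median log2 fold change for antibiotic against control was 0.08, with 15 above 0 and 14 below. It was -0.10 without control replicate 3, -0.11 without control replicate 1, -0.05 without antibiotic replicate 1, -0.10 without antibiotic replicate 3 and 0.16 without antibiotic replicate 2. In 2 of them the antibiotic group lay wholly above control and in 4 wholly below, against 18.1% and 10.9% of all genes. Summed over the list, levels ran from 7456 to 8370 CPM in antibiotic, 6798 to 9405 CPM in transfer and 9284 to 13168 CPM in controls.

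The ligand Il1b, named here for its role and after its values were seen, was the member of the inducible effector list most like Ptgs2. It had 275, 285 and 274 CPM in antibiotic, 161, 124 and 206 CPM in transfer and 185, 153 and 49.99 CPM in controls. Antibiotic libraries lay above all others, and transfer and control overlapped. Il1b had a Pearson r of 0.83 with Ptgs2 in log2 CPM over the 9 libraries, and 0.50 without the pair of libraries farthest from the Ptgs2 median (control replicate 3 and antibiotic replicate 2). Tnf had 40.4, 74.0 and 41.3 CPM in antibiotic, 78.0, 21.4 and 46.3 CPM in transfer and 28.2, 48.7 and 9.61 CPM in controls, so all groups overlapped. Il6 passed its limit in 2 antibiotic, 0 transfer and 1 control library.

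The most abundant genes of this list lay below 0 for antibiotic against control. Cd14, the co-receptor for lipopolysaccharide, was among the 5 genes least like Ptgs2, at 700.3 ± 116 CPM in antibiotic, 796 ± 182 CPM in transfer and 1874 ± 417 CPM in controls (SD, n = 3 each). Tollip, an inhibitor of this pathway, had a log2 fold change of -0.95 ± 0.30 (SE) for antibiotic against control. Traf6, a ubiquitin ligase downstream of these receptors, had -0.21 ± 0.29 and Il18, an epithelial cytokine, -0.70 ± 0.50. The receptor genes Tlr2 and Tlr4, also named for their role, had -0.34 and -0.05. Myd88, named in the same way, had -0.68 ± 0.41. Il1r1, likewise named for its role, had 0.26 ± 0.85 and passed its limit in 1 antibiotic, 2 transfer and 1 control library.

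Of 16 measured NF-kB, C/EBP and AP-1 factors and regulators, 15 were kept, 4 above 0 and 11 below, with a median log2 fold change of -0.42 for antibiotic against control, where 50.9% of all genes were above 0. That median was -0.20 without antibiotic replicate 1 and -0.13 with housekeeping scaling, under which all genes had a median of 0.31. The abundant members were Nfkbia, an inhibitor of NF-kB, at -0.26 ± 0.28 (SE), Chuk, an activating kinase, at -0.12 ± 0.38, Nfkbiz, an epithelial co-regulator, at -0.58 ± 0.35, and Tnfaip3, a feedback inhibitor, at 0.92 ± 0.47. Of the factors known to act on the promoter, the NF-kB subunits Nfkb1 and Rela had -0.84 and -0.50, each with every antibiotic library below every control library. For Rela the nearest libraries had 148 CPM (antibiotic) and 150 CPM (control). In the list 2 of the 15 lay wholly below control and 0 wholly above, against 10.9% and 18.1% of all genes. Cebpb, which encodes C/EBP beta, passed its limit in 1 antibiotic, 2 transfer and 2 control libraries, and had an r of -0.13 with Ptgs2. These are transcript levels of the factors, and their activity was not measured.

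The MAP kinase pathway, which stabilises Ptgs2 transcripts in other settings, was measured by 7 genes, all kept. All 7 were below 0 for antibiotic against control (median -0.30), where 50.9% of all genes were above 0. With housekeeping scaling this median was -0.01, where the median of all genes was 0.31. Mapkapk2, the kinase downstream of p38, had a log2 fold change of -1.20 ± 0.46 (SE) and Map4k4 -0.80 ± 0.38. Mapk14, which encodes p38 alpha, had -0.30 ± 0.37. In Mapkapk2 and Map4k4, 2 of the 7, the antibiotic group lay wholly below control, as in 10.9% of all genes.

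Inducible inflammatory effectors had 18 of 24 measured genes kept, 13 above 0 and 5 below, with a median log2 fold change of 0.54 for antibiotic against control and 0.24 for transfer against control. The first median was 0.34 without control replicate 3 and 0.25 without antibiotic replicate 3. With housekeeping scaling it was 0.86, where the median of all genes was 0.31. With spike-in scaling it was -1.38, where the median of all genes was -1.92. Antibiotic libraries lay wholly above control in 4 of these 18 genes and wholly below in 0, against 18.1% and 10.9% of all genes. Ccl3 and Ccl4, chemokines of activated lymphocytes and macrophages, had 0.78 ± 0.37 and 1.15 ± 0.42 (SE), and Csf2, the cytokine GM-CSF, 1.67 ± 0.72. Nos2, the inducible nitric oxide synthase, ran the other way at -1.43 ± 0.53. The list of interleukin-10, STAT6 and TGF-beta axis genes, which hold Ptgs2 down in some cells, had 13 of 14 kept and a median of -0.43. That median was -0.10 without antibiotic replicate 1 and -0.18 with housekeeping scaling (all genes 0.31).

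Ccl20, the epithelial ligand of CCR6, came nearest to Ptgs2 among the epithelial markers. It had 114, 152 and 49.6 CPM in antibiotic, 39.0, 48.1 and 28.4 CPM in transfer and 39.1, 35.2 and 32.7 CPM in controls. As with Ptgs2, antibiotic replicates 1 and 2 were high and replicate 3 lower. Unlike Ptgs2, Ccl20 overlapped between transfer and control libraries. Its r with Ptgs2 was 0.77.

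Likeness to Ptgs2 was measured as Pearson's r in log2 CPM over the 9 libraries for the other 469 kept genes. These libraries share 3 groups, so genes that differ between the groups in the same way correlate through the group means, and r is given without a p. The median r was -0.01, and 8 genes (1.71%) reached 0.9. The 10 genes most like Ptgs2 ran from 0.89 to 0.94, with the next gene at 0.89, and Spearman's rho for the 10 ran from 0.65 to 0.92. Without control replicate 3 and antibiotic replicate 2, r for the 10 ran from 0.76 to 0.96 over 7 libraries. On deviations from the group means, which take the group differences out, r for the 10 ran from 0.61 to 0.87, where the median gene had 0.16. The 10 were chosen on r over the same libraries, which holds these deviations, so a value above the median gene is partly built in. Ranked on deviations alone, 2 of the 10 stayed among the top 10.

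Tcf4, an E-protein transcription factor, was most like Ptgs2 (r = 0.94, rho = 0.88). It had 784, 951 and 633 CPM in antibiotic, 591, 465 and 606 CPM in transfer and 354, 386 and 296 CPM in controls. The groups did not overlap at all, in the order antibiotic, transfer, control. Bcl6, a transcriptional repressor of germinal centre B cells and follicular helper T cells, followed (r = 0.93, rho = 0.85), with 889 ± 163 CPM in antibiotic, 672 ± 146 CPM in transfer and 387 ± 58.3 CPM in controls (SD, n = 3 each).

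Gpr183 (r = 0.92, rho = 0.82) averaged 515 ± 77.5 CPM in antibiotic, 387 ± 67.2 CPM in transfer and 122 ± 68.4 CPM in controls (SD, n = 3 each). Runx3, a transcription factor of CD8 T cells and innate lymphocytes, had r = 0.92 and rho = 0.85, and the largest share of settings in which it stayed among the 10, at 15 of 15. Ctla4, an inhibitory receptor of T cells, had r = 0.92 and rho = 0.82. H60a had r = 0.91 and rho = 0.73, with 1962, 1250.2 and 1244 CPM in antibiotic, 1363, 961 and 1175 CPM in transfer and 465, 493 and 129 CPM in controls.

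Abcb1a, the xenobiotic efflux pump of the intestinal epithelium, was the most abundant of the 10 (r = 0.91, rho = 0.92). It had 4825, 4339 and 3105 CPM in antibiotic, 2719, 3856 and 3108 CPM in transfer and 2144, 2419 and 2257 CPM in controls. It was also the 1 gene of the 10 in which control replicate 3 was not the lowest of the 9 libraries. Nt5e, the ectoenzyme CD73 that makes adenosine, had r = 0.90 and rho = 0.78. Klrd1 and Klrb1, receptors of NK cells and cytotoxic T cells, had r of 0.90 and 0.89 and rho of 0.65 and 0.77.

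All 10 genes lay above control in every antibiotic and every transfer library, which their choice by likeness to Ptgs2 largely fixes. Their log2 fold changes for antibiotic against control ran from 0.85 (Abcb1a) to 2.07 (Gpr183), below the 3.03 of Ptgs2, and without control replicate 3 that of Nt5e was 0.57 in place of 0.92. With spike-in scaling all 10 were negative for antibiotic against control, at -0.21 (Gpr183) to -1.36 (Nt5e), where Ptgs2 stayed at 0.51 and the panel median was -1.92. For transfer against antibiotic they ran from -0.51 to 0.01, where Ptgs2 had -1.19. Like Ptgs2, 9 of the 10 were lowest among antibiotic libraries in replicate 3, which the same choice favours.

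**Figure D4:**
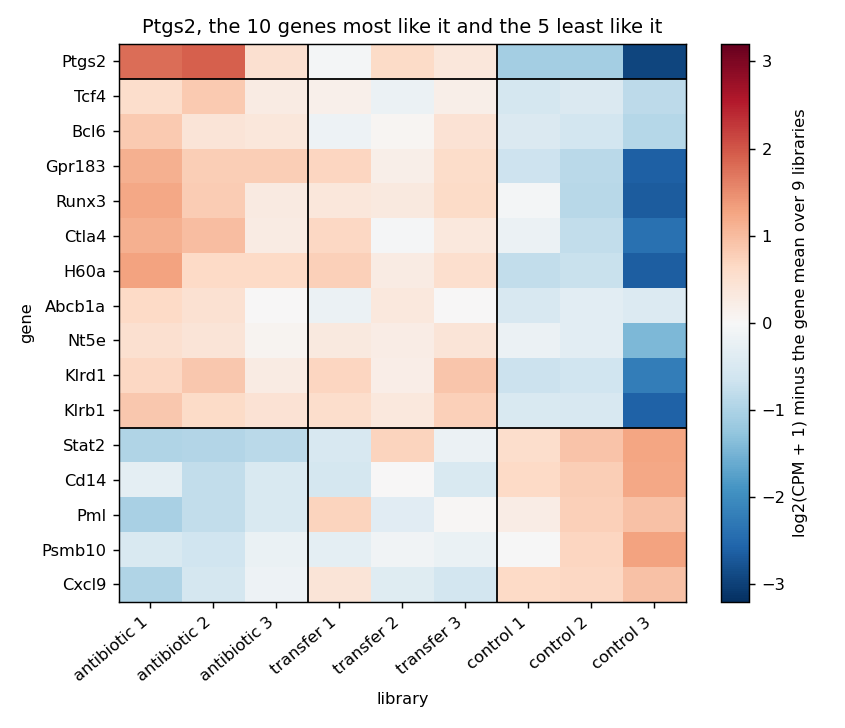
Colour shows log2(CPM + 1) minus the gene's mean over the 9 libraries, for Ptgs2 (top row), the 10 genes most like it and the 5 least like it; columns are libraries by group. Red in antibiotic and deep blue in control replicate 3 run through Ptgs2 and most of the 10, and the 5 opposite genes show the reverse.

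The 5 genes least like Ptgs2 were Cxcl9, an interferon-induced chemokine (r = -0.92), Psmb10, an immunoproteasome subunit (-0.91), Pml, an interferon-induced nuclear body protein (-0.89), Cd14 (-0.87) and Stat2, which carries signals of type I interferon (-0.83). All 5 were lower in every antibiotic than in every control library, as were 10.9% of all genes, with log2 fold changes between -1.88 and -1.19. Their choice by low r with Ptgs2 largely fixes this. Stat2 had 104, 107 and 111 CPM in antibiotic, 143, 338 and 179 CPM in transfer and 304, 388 and 496 CPM in controls. In all 5 control replicate 3, the library lowest in Ptgs2, was the highest of the 9 libraries, which the same choice favours.

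Several genes beside Ptgs2 in this ranking belong to lymphocytes, and lymphocyte markers differed between libraries. The 11 T cell markers summed to 26917 to 30195 CPM in antibiotic, 21701 to 36038 CPM in transfer and 5099 to 23164 CPM in controls, with control replicate 3 lowest. The 7 B cell markers summed to 5297 to 7666 CPM in antibiotic, 4588 to 8601 CPM in transfer and 844 to 4170 CPM in controls. For antibiotic against control 9 of 11 T cell and 6 of 7 B cell markers were above 0, against 50.9% of all genes. The other 2 and 1 lay below 0, down to -0.36 and -0.41. Abundant members above 0 included Cd3e at 0.90 ± 0.45, Cd3d at 1.22 ± 0.43, Ms4a1, which encodes CD20, at 1.99 ± 0.47 and Cd79b at 1.19 ± 0.50 (log2 fold change, SE). Ptgs2 followed the mean log2 level of the T cell list with an r of 0.57 (rho 0.27) and that of the B cell list with 0.74 (rho 0.42). Without control replicate 3 and antibiotic replicate 2 these were 0.30 and 0.46. For transfer against control, 11 of 11 T cell and 6 of 7 B cell markers were above 0, against 52.8% of all genes, and for transfer against antibiotic 9 and 5 were, against 48.7%. With spike-in scaling both list medians were negative for antibiotic against control, at -1.19 and -1.10, where the median of all genes was -1.92. The part of the lymphocyte markers in the Ptgs2 difference was not tested.

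Markers of myeloid and stromal cells, which are known producers of COX-2, were measured as well. Of 12 measured macrophage and monocyte markers 9 were kept, 4 above 0 and 5 below for antibiotic against control. They summed to 2748 to 3637 CPM in antibiotic, 2583 to 2951 CPM in transfer and 3233 to 3334 CPM in controls. Their mean log2 level had an r of -0.01 with Ptgs2, -0.52 without control replicate 3 and antibiotic replicate 2, and 0.55 on deviations from group means. Within the list Cybb, the phagocyte NADPH oxidase subunit, had 1.53 ± 0.62 and Itgam -0.51 ± 0.39 (log2 fold change, SE), while Ccr2, Msr1 and Marco did not pass the background filter.

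Granulocyte and mast cell markers had 6 of 9 kept, 5 above 0 and 1 below for antibiotic against control, with sums of 1261 to 1392 CPM in antibiotic, 1038 to 1460 CPM in transfer and 373 to 1179 CPM in controls. The neutrophil genes Csf3r, Ltf and Camp did not pass the filter. The neutrophil gene S100a8 did, with 55.8, 7.40 and 106 CPM in antibiotic, 127, 100.1 and 158 CPM in transfer and 106, 121 and 23.1 CPM in controls, and a log2 fold change of -0.50 ± 0.71 (SE) for antibiotic against control. Kit, carried by mast cells, had a log2 fold change of 0.69 ± 0.40 (SE) and Fcer1a, the mast cell IgE receptor chain, 1.05 ± 0.47. The 4 kept dendritic cell markers, 3 of them above 0, summed to 814 to 1335 CPM in antibiotic, 675 to 1111 CPM in transfer and 144 to 817 CPM in controls. The 6 kept stromal and endothelial markers, 4 of them above 0, summed to 866 to 1074 CPM in antibiotic, 904 to 1732 CPM in transfer and 381 to 1110 CPM in controls, and Fn1, Cdh5 and Sele did not pass. The mean log2 level had an r with Ptgs2 of 0.52 for the granulocyte and mast cell list, 0.60 for the dendritic list and 0.45 for the stromal list, and without control replicate 3 and antibiotic replicate 2 these were 0.40, -0.11 and 0.03. The part of these cells in the Ptgs2 difference was not tested.

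The label of ileal epithelial cells was checked on 6 epithelial markers, of which 5 were kept. Pigr, the transporter of secretory antibody, had 50877 to 59606 CPM in antibiotic, 29168 to 64256 CPM in transfer and 47904 to 70079 CPM in controls, and the small intestinal chemokine Ccl25 had 12547 to 39082 CPM in antibiotic, 9025 to 23456 CPM in transfer and 10270.5 to 26426 CPM in controls. Widely used epithelial markers such as Epcam, Cdh1 and Vil1 were not measured. The summed epithelial level overlapped between the groups, and the mean log2 level of its markers had an r of 0.13 with Ptgs2.

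**Figure D5:**
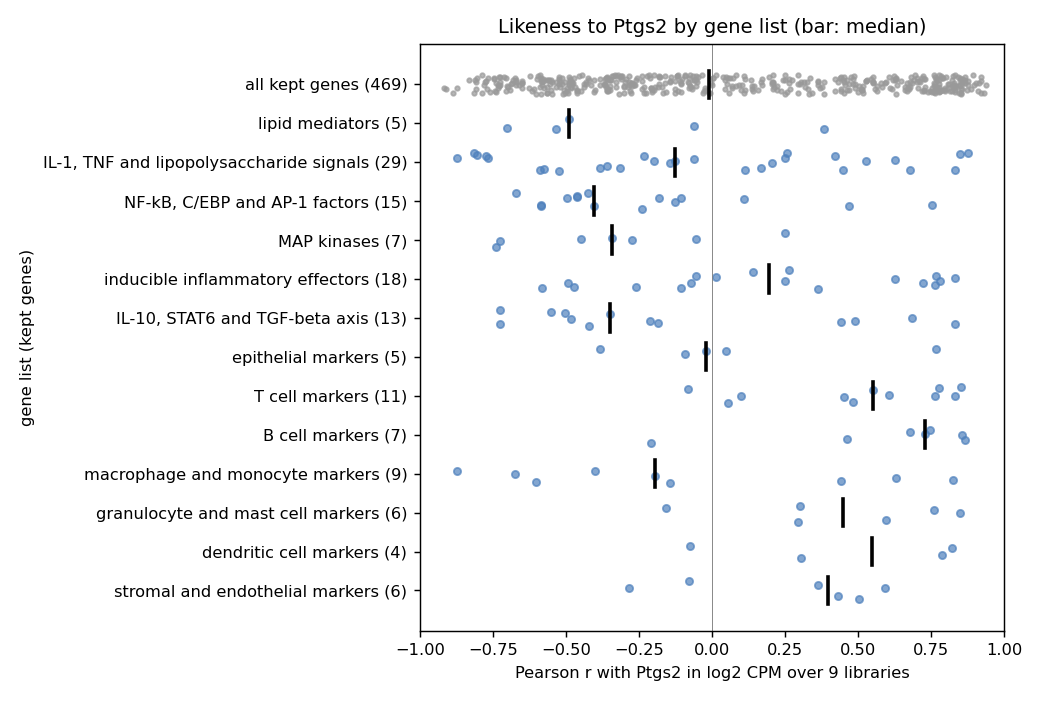
Pearson r with Ptgs2 in log2 CPM over 9 libraries for each kept gene (points), by gene list, with the number of genes in brackets and the list median as a bar. The B cell (0.73) and T cell (0.55) medians lie to the right of that of all genes (-0.01), and the lipid mediator median (-0.49) to its left.

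Housekeeping genes took 15.4% to 18.1% of counts in antibiotic, 15.0% to 18.0% in transfer and 19.0% to 24.5% in control libraries. Their share had an r of -0.73 with Ptgs2 (rho -0.52), -0.19 without the 2 libraries with the most extreme shares, and -0.43 on deviations from group means. Total counts had an r of -0.09 with Ptgs2 and spike-in totals 0.38. The part of the housekeeping share and of the spike-in totals in the Ptgs2 difference was not tested.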

How the data were processed

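The authors deposited 9 files of raw counts per probe, with probe class and target accession per the file headers, and 1 table of a normalised signal. The counting software is not given in the sources used here. The deposited signal equalled the counts times 1 factor per library (0.734 to 1.82), as found from the values. The counts went into edgeR 4.0.16 (R 4.3.3). Genes were retained on passing the negative-probe limit in at least 3 of 9 libraries (470 of 561 genes), scaled by TMM (0.837 to 1.10) and tested by the quasi-likelihood test in 1 fit of all libraries, with Benjamini-Hochberg adjustment over the 470 genes and a threshold of 0.05. Likeness used log2 CPM with a prior count of 2. All libraries carry the same batch label. No pair of libraries in a group was a duplicate (chi-square per degree of freedom at least 6.89).

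Ptgs2 and the 13 gene lists were chosen with earlier results of these data known. Named genes were Ptgs2, the 5 next by log2 fold change (antibiotic against control), the 10 most and 5 least like Ptgs2, all measured lipid mediators and up to 4 abundant members of each other list. To these, Il1b, Tnf, Il6, Il1r1, Tlr2, Tlr4, Myd88, Nfkb1, Rela and Cebpb were added by role. One gene that this rule names is not reported here. On simulated data for antibiotic against control (470 genes, 200 changed), the test recovered 22.7% of genes changed 2-fold and 79.2% changed 4-fold. Alternatives were DESeq2 1.42.0, limma 3.58.1 on log2(signal + 1), other scalings and filters, background subtraction, 2-group fits, a replicate block and leaving out each library.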

Additional observations from a re-analysis of the deposited data

How the results depend on the processing

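Ptgs2 kept its sign and moved by less than the spread between replicates under each alternative other than spike-in scaling. That scaling gave log2 fold changes of 0.51 for antibiotic against control and 1.08 for transfer against antibiotic, the one change of sign, while transfer against control stayed at 1.59. Other alternatives that kept all libraries ran from 2.82 to 3.71, from -1.28 to -0.94 and from 1.76 to 2.43 in that order of comparisons. Leaving out 1 library gave 2.57 to 3.37, -1.52 to -0.95 and 1.40 to 2.12. With the replicate number as a block the values were 3.06, -1.04 and 2.03 and the counts of calls stayed at 0. The labels do not say whether the numbers pair the samples. On deviations from group means, 2 of 9 same-numbered pairs and 9 of 18 other pairs correlated above 0.1. This cannot decide the question, since deviations within a group of 3 libraries depend on each other. For antibiotic against control, DESeq2 called 51 genes, upper-quartile factors 12, the stricter filter 8 and spike-in scaling 2, against 0 in the report, and leaving out 1 library gave 0 to 23. For transfer against control DESeq2 called 40, and leaving out 1 library gave 0 to 2. Leaving out 1 library called 0 genes for transfer against antibiotic. Of the 10 genes most like Ptgs2, 6 stayed among the 10 by Spearman's rho, 5 with spike-in scaling, 2 on deviations from group means and 6 to 10 with 1 library left out. Spike-in scaling moved the median of all genes to -1.92 for antibiotic against control. The log2 fold changes for that comparison that changed sign with it were -0.96 (Tcf4), -0.89 (Bcl6), -0.21 (Gpr183), -0.81 (Runx3), -0.79 (Ctla4), -0.25 (H60a), -1.22 (Abcb1a), -1.36 (Nt5e), -0.73 (Klrd1), -0.75 (Klrb1), -1.23 (Ltb4r2) and -1.29 (Ptafr). The cause was not tested. Depth limits Ptgs2 in control libraries, where 36 counts in all were seen.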
